A study of Mus musculus with 6 samples.

Results

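Hox cluster genes were examined in the pancreas of E12.5 mouse embryos, with 3 control and 3 Hox6 null samples. The members were all probe sets that the platform annotation assigns to a single gene whose symbol is Hox followed by a, b, c or d and a number. Antisense and host transcripts were left out. This rule gave 48 probe sets of 33 genes, out of 45037 probe sets on the arrays and out of 39 Hox genes in the RefSeq table. There were 9 genes of the Hoxa cluster, 9 of Hoxb, 7 of Hoxc and 8 of Hoxd. Hoxa6, one of the targeted genes, had no probe set of its own and was not analysed here. Another 3 probe sets were shared between neighbouring genes, Hoxd3 with Hoxd4 or Hoxb7 with Hoxb8, and were left out.

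Control pancreas came from wild type mice and null pancreas from mice given as Hox6 null, both of the strain written as Bl6. All samples were described as biological replicates and none had received an agent. In the mouse, the Hox6 paralogue group consists of Hoxa6, Hoxb6 and Hoxc6. The labels do not name the alleles, the part of each gene that was disrupted, the litter, the sex or the number of embryos in a sample. RNA was amplified from 10 ng per sample and hybridised to 1 Affymetrix array each, and the values are log2 levels. Precision is limited by having 3 arrays per group.

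Hox genes encode homeodomain transcription factors and lie in 4 clusters, in which genes of the same number in different clusters are paralogues. Along the body axis, low-numbered genes are expressed further forward and high-numbered genes further back, and the order on the chromosome matches that order. Hox proteins bind DNA together with the Pbx and Meis proteins. In the developing pancreas the Hox6 genes are known from the mesenchyme that surrounds the epithelium, where they act on endocrine differentiation.

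Promoter sequence shows the letters that precede genes of different behaviour in these data. The examples from one cluster were chosen after the levels were known. Hoxa5 read far above background, Hoxa7 was the single gene with every null array below every control array, and Hoxa13 read at background. Each line gives the 250 bases before the RefSeq transcription start on build GRCm38.p6, 5′ to 3′ on the minus strand, with every CG dinucleotide in capitals. They lie at chr6:52204588-52204837, chr6:52218574-52218823 and chr6:52260881-52261130.
Hoxa5: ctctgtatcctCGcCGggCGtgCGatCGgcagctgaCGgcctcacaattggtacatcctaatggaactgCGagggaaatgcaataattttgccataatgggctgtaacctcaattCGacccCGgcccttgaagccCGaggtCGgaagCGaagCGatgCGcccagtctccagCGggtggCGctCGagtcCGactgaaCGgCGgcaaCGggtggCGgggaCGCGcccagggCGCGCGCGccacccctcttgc
Hoxa7: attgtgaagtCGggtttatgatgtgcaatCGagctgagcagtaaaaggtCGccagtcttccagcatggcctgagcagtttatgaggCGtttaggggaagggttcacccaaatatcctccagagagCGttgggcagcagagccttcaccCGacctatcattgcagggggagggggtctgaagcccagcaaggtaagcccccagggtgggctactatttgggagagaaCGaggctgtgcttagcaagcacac
Hoxa13: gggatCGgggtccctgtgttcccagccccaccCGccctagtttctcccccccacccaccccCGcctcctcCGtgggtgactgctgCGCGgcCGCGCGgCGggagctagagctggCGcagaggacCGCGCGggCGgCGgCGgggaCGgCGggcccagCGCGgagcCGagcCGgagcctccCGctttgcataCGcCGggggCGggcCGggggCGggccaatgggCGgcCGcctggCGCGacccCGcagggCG
The Hoxa5 stretch holds 28 CG dinucleotides, that of Hoxa7 holds 7 and that of Hoxa13 holds 35. Over all 32851 windows of this length in the RefSeq table the median was 6. The Hox genes had 24 windows, which belong to 22 genes. The Hoxa5 stretch lies within the annotated spans of Hoxa3 and of the antisense gene Hoxaas3, and no other annotated gene covers the other stretches. The median CG number was 8 in 11 windows of genes read above background and 20 in 10 windows of genes read at background. These are descriptions of sequence, and their part in the levels was not tested.

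Short motifs were counted on both strands of the same windows, overlaps included. TGATNNAT, a form bound by Pbx and Hox proteins together, occurred in 4 of 24 Hox windows (16.7%), those of Hoxa2, Hoxb1, Hoxb8 and Hoxd11, and in 7.68% of all windows. TGACAG, bound by Meis proteins, occurred in 2 Hox windows (8.33%), against 15.9% of all windows. AGGTCA, a core site of retinoic acid receptors, occurred in 6 Hox windows (25.0%), among them Hoxb4, Hoxc4 and Hoxd8, against 14.0% of all. TTTATG, bound by Cdx proteins, occurred in 5 Hox windows (20.8%), against 10.8% of all. The Hoxa7 stretch holds TTTATG in 2 places and the Hoxa5 and Hoxa13 stretches hold none of the 4 motifs.

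Levels in control pancreas were read against a floor, because probe sets of genes that are not expressed still give a signal. The floor was 4.23, the 95th percentile of the control means of 43 probe sets of olfactory receptor genes, a family not expected in pancreas. Probe sets differ in affinity, so a level places each probe set above or below the floor and does not rank genes. A total of 33 of the 48 Hox probe sets and 22 of the 33 genes had a control mean above the floor. A stricter mark, the median of all probe sets at 5.98, was passed by 23 probe sets of 14 genes, all with a number from 2 to 8.

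Genes numbered 4 to 8 were for the most part well above the floor. Of their 20 probe sets 17 passed the floor and 16 the median, with control means from 3.43 to 9.52. All Hox4 and Hox5 probe sets passed both marks. Hoxb5 read 9.61, 9.43 and 9.52 in control arrays 1 to 3, above 92.3% of all probe sets. Hoxa5, known for its part in lung and gut mesenchyme, read 9.50, 9.15 and 9.37. The 3 probe sets of Hoxc5 had control means of 8.69, 8.61 and 8.25, and Hoxc4 had 8.47 ± 0.14 (SD, n = 3). Hoxb4 gave 9.49 and 7.05 from its pair of probe sets, and Hoxa4 gave 6.67 and 6.16. Hoxa7 had 6.90, Hoxd8 had 6.79 and 6.15, and Hoxb7 lay near the floor at 4.45.

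Genes numbered 1 to 3 divided by cluster. Hoxa3, which acts in the pharyngeal region and its glands, had the highest control mean of any Hox probe set, with 10.70, 10.61 and 10.65 in the control arrays. Its other 3 probe sets had means of 7.54, 7.50 and 5.76, which illustrates how far probe sets of one gene can lie apart. Both probe sets of Hoxb3 gave 8.79 and 8.73, Hoxb2 gave 7.65 and Hoxa2 gave 6.99. Hoxb1, a hindbrain gene, was at 4.95. In the Hoxd cluster, Hoxd3 at 3.82 and Hoxd1 at 2.01 were below the floor.

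Genes numbered 9 to 13 were near or below the floor. None of their 17 probe sets passed the median of all probe sets, and 7 of them passed the floor. These belonged to Hoxa9 (5.54 and 5.14), Hoxb9 (5.05), Hoxc9 (5.25), Hoxd9 (4.31), Hoxb13 (4.91) and Hoxd12 (4.49). Hox10 and Hox11 genes, which pattern the lumbar and sacral region and the limb, had no probe set above the floor, and their control means ran from 2.44 to 3.71. Hoxa13, Hoxc13 and Hoxd13, genes of the hindgut and the distal limb, lay between 2.84 and 3.80. By cluster, all 9 Hoxb genes had a probe set above the floor, against 6 of 9 in Hoxa, 4 of 7 in Hoxc and 3 of 8 in Hoxd (Hoxd8, Hoxd9 and Hoxd12).

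**Figure D1:**
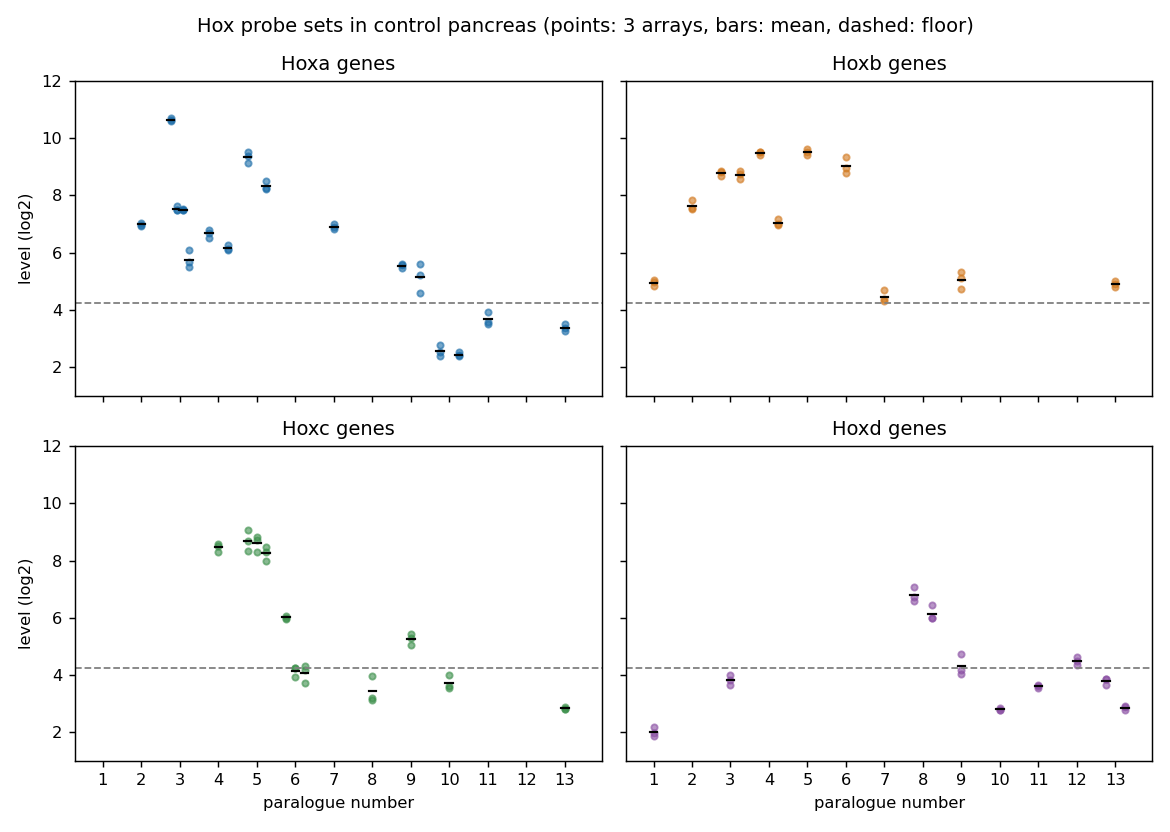
Level of each Hox probe set in control pancreas (log2) by paralogue number, 1 panel per cluster. Points are the 3 control arrays, short bars their mean and the dashed line the floor at 4.23. Among genes 2 to 6 of the Hoxa and Hoxb clusters, Hoxa6 has no probe set of its own and all others lie above the line. Probe sets numbered 10 and 11 lie below it in every cluster where they were measured.

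Null pancreas was then compared with control pancreas for every Hox probe set. In whole organs, fewer cells of a type and less RNA per cell cannot be told apart. No Hox probe set changed at an adjusted p of 0.05 (limma, Benjamini-Hochberg over all probe sets). The count was 0 of 48, and over all probe sets 1 of 45037 passed (0.00222%). At the level of genes, 0 of 33 passed against 0.0715% of 18193 genes. At an unadjusted p under 0.05, 7 of the 48 Hox probe sets stood out (14.6%), close to the 15.0% of all probe sets (limma). Null and control arrays did not overlap for 7 Hox probe sets (14.6%), against 22.0% of all probe sets. Null arrays were higher without overlap for 6 of the 48 Hox probe sets, a share close to the 12.1% of all probe sets. They were lower without overlap for 1 of the 48 (2.08%), against 9.89% of all probe sets. The Hox genes as a set had no larger share of differing probe sets than the arrays as a whole.

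The targeted paralogues came first. Hoxb6 read 8.78, 8.97 and 9.36 in control arrays and 8.25, 8.71 and 8.91 in null arrays. Null 1 and null 2 lay below all controls and null 3 lay among them, so the groups overlapped. The difference was -0.42 ± 0.21 (SE), with a 95% confidence interval from -0.91 to 0.08 and an adjusted p of 0.393 (limma). The signal remained far above the floor in every null array. Hoxc6 was represented by 3 probe sets. The probe set 1427454_at read 6.08, 5.97 and 6.01 in control and 6.23, 6.06 and 6.16 in null arrays, with overlap and a confidence interval of the difference from -0.11 to 0.37. The other two had control means just below the floor. For 1427362_x_at the controls read 4.24, 3.91 and 4.25 and the null arrays 4.63, 4.59 and 5.38, without overlap, and the difference was 0.73 ± 0.23 (SE) with an adjusted p of 0.253 (limma). The suffix x marks probe sets that can bind other transcripts too. For 1427361_at the controls read 4.17, 4.33 and 3.72 and the null arrays 4.76, 4.10 and 4.77, with overlap. No Hoxc6 probe set read lower on average in null pancreas. The tables used do not say where in each gene the probes lie, so a probe outside the disrupted part cannot check the genotype.

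The Hox5 genes, immediate neighbours of the Hox6 genes on the chromosome, differed mainly between null arrays. All 6 Hox5 probe sets had a negative difference, with a median of -0.35. Of all probe sets 42.7% were negative, and 50.1% of those above the floor, where all 6 lay. Hoxc5 alone supplied 3 of the 6, and Hoxa5 with 1448926_at differed by only -0.006. Hoxc5 had the widest differences, at -0.90, -0.77 and -0.54 for its probe sets. With 1439885_at it read 8.73, 8.29 and 8.83 in control and 7.11, 7.58 and 8.47 in null arrays. With 1450832_at it read 8.69, 8.32 and 9.06 in control and 7.63, 7.86 and 8.96 in null arrays. In both cases null 1 and null 2 were below all controls and null 3 was among them. Their adjusted p-values were 0.291 and 0.488 (limma). With 1456301_at Hoxc5 read 8.29, 7.98 and 8.47 in control and 6.80, 7.12 and 8.50 in null arrays, so null 3 was above all controls. Hoxa5 with 1448926_at read 9.05, 9.23 and 9.74 in null arrays, around a mean of 9.34 in both groups, and the confidence interval of the difference ran from -0.46 to 0.45. Hoxb5 read 9.08, 9.33 and 9.83 in null arrays, with an interval from -0.56 to 0.34. For these probe sets null 3 was the highest of all arrays and null 1 the lowest. The other probe set of Hoxa5 read 8.52, 8.22 and 8.27 in control and 7.99, 8.09 and 8.49 in null arrays, with null 1 again lowest and control 1 highest.

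Among the Hox7 genes, on the other side of Hox6, Hoxa7 was the single Hox gene with every null array below every control. It read 6.88, 6.82 and 7.0 in control and 6.09, 6.49 and 6.33 in null arrays. The difference was -0.60 ± 0.13 (SE), or 1.51-fold, with an unadjusted p of 0.00236 and an adjusted p of 0.202 (limma). Null 3 sided with the other null arrays here. Hoxb7 read 4.70, 4.30 and 4.37 in control and 4.70, 4.03 and 4.76 in null arrays, so the groups overlapped near the floor, with a confidence interval from -0.46 to 0.55. Hoxd8, the probe set with the highest control mean in its cluster, read 6.58, 6.73 and 7.06 in control and 6.81, 6.65 and 6.77 in null arrays, an overlap with a difference of -0.05.

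**Figure D2:**
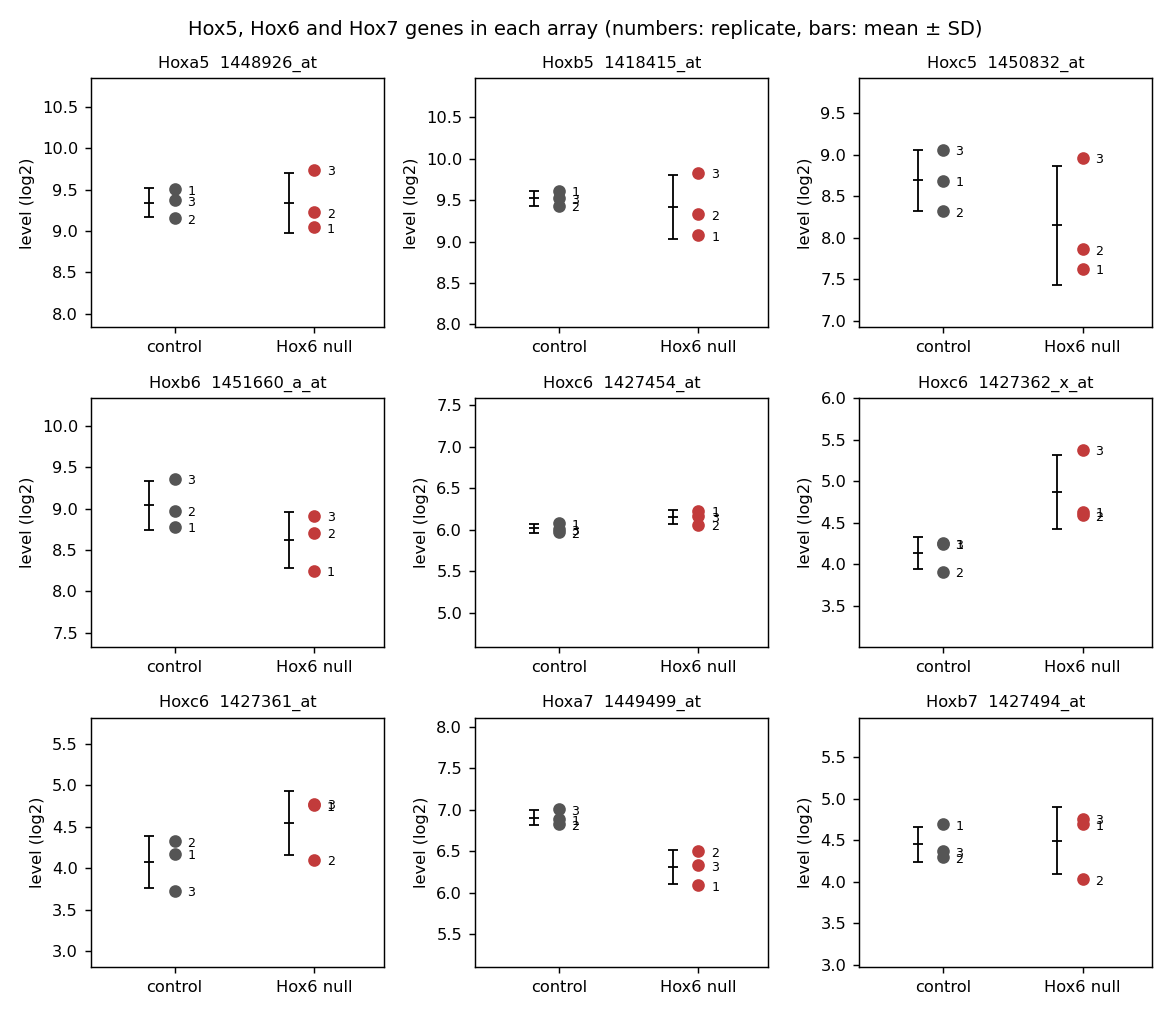
Level (log2) of the Hox6 probe sets and of 1 probe set of each Hox5 and Hox7 gene in each array. Replicate numbers and the mean ± SD of each group (n = 3) stand beside the points. Every panel spans 3 log2 units around its own centre. Hoxa7 separates the groups downward and the Hoxc6 probe set 1427362_x_at upward, while null 3 lies above null 1 and null 2 for the Hox5 genes.

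Hox3 and Hox4 genes were grouped after the values were seen. Among them 9 of 12 probe sets had a positive difference (75.0%), against 57.3% of all probe sets. Of all probe sets above the floor, where all but 1 of the 12 lay, 49.9% were positive. The negative Hox3 and Hox4 probe sets were both those of Hoxb3, at -0.08 and -0.17, and Hoxa4 with 1427354_at, at -0.21. Probe sets of one gene are not independent. By gene, Hoxa3, Hoxb4, Hoxc4 and Hoxd3 were positive, Hoxc4 by only 0.03. Hoxb3 was negative and the Hoxa4 probe sets differed in sign. All 4 probe sets of Hoxa3 had a positive difference, from 0.14 to 0.37. The bright one read 10.70, 10.61 and 10.65 in control and 10.93, 11.05 and 10.76 in null arrays, without overlap, a difference of 0.26 ± 0.11 (SE) with an adjusted p of 0.337 (limma). With 1431392_at Hoxa3 read 7.48, 7.54 and 7.50 in control and 7.51, 7.86 and 8.26 in null arrays, so that the lowest null array overlapped the controls. Hoxb4 read 7.19, 6.96 and 6.99 in control and 7.16, 7.56 and 7.99 in null arrays with 1451761_at, a difference of 0.52 ± 0.21 (SE) with an adjusted p of 0.313 (limma). Its other probe set differed by 0.06. Hoxd3 read 3.65, 3.83 and 3.98 in control and 4.63, 3.91 and 5.36 in null arrays, and null 1 and null 3 stood above the floor of 4.23. Its difference was 0.82 ± 0.33 (SE), with an adjusted p of 0.316 (limma).

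Posterior Hox genes were mostly read near the floor, where positive differences prevailed on the arrays as a whole. Of the 17 probe sets numbered 9 to 13, 10 lay at or below the floor, 13 had a positive difference and the median was 0.21. Of all probe sets at or below the floor, 78.6% were positive, with a median of 0.15, against 57.3% of all probe sets. The 10 at or below the floor had 8 positive (80.0%), near that share. Of the 7 above the floor 5 were positive (71.4%), with a median of 0.20. Among all probe sets above the floor 49.9% were positive, with a median of -0.0005. The median of the 17 Hox probe sets was 0.12 after repeated quantile normalization and 0.31 without null 2. All 5 Hox13 probe sets were positive, 4 of them at or below the floor, and for 4 the null arrays were higher without overlap. That pattern held for 18.3% of all probe sets at or below the floor, 9.98% of those above it, where Hoxb13 lay, and 12.1% of all probe sets. The Hox13 genes were singled out after the values were seen, and 2 of the 4 probe sets were of Hoxd13. Repeated quantile normalization lowered the 4 differences. Those of Hoxd13 went from 0.55 and 0.25 to 0.45 and 0.13, that of Hoxa13 from 0.42 to 0.30 and that of Hoxb13 from 0.31 to 0.25. Hoxd13 read 3.67, 3.86 and 3.86 in control and 4.28, 4.50 and 4.25 in null arrays with 1422239_at, with an adjusted p of 0.201 (limma). Its other probe set read 2.88, 2.78 and 2.91 in control and 3.19, 2.99 and 3.15 in null arrays. Hoxa13 read 3.36, 3.25 and 3.51 in control and 3.64, 3.80 and 3.93 in null arrays. Hoxb13 read 4.81, 4.90 and 5.03 in control and 5.45, 5.17 and 5.03 in null arrays, where control 3 and null 3 nearly touch. Hoxc9 read 5.41, 5.30 and 5.04 in control and 5.84, 5.27 and 6.11 in null arrays, with overlap. In the null arrays Hoxa13 and the dimmer Hoxd13 probe set still lay below the floor.

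By cluster, the median difference was 0.16 for Hoxa, -0.08 for Hoxb, 0.03 for Hoxc and 0.19 for Hoxd. By paralogue number it was 0.14 for genes 1 to 3, -0.08 for genes 4 to 8 and 0.21 for genes 9 to 13. Several of these turned when 1 array was left out. The Hoxb median was 0.10 without null 1 and -0.31 without null 3, that of Hoxc was -0.21 without null 3, and that of genes 4 to 8 was 0.048 without null 1. The Hoxa median was 0.03 without null 3 and 0.04 without null 2. Over the 33 Hox probe sets above the floor the median was -0.01, with 16 positive and 17 negative. Of the 11 genes with several probe sets, 8 had the same sign in all of them, and Hoxa4, Hoxa9 and Hoxa10 did not.

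**Figure D3:**
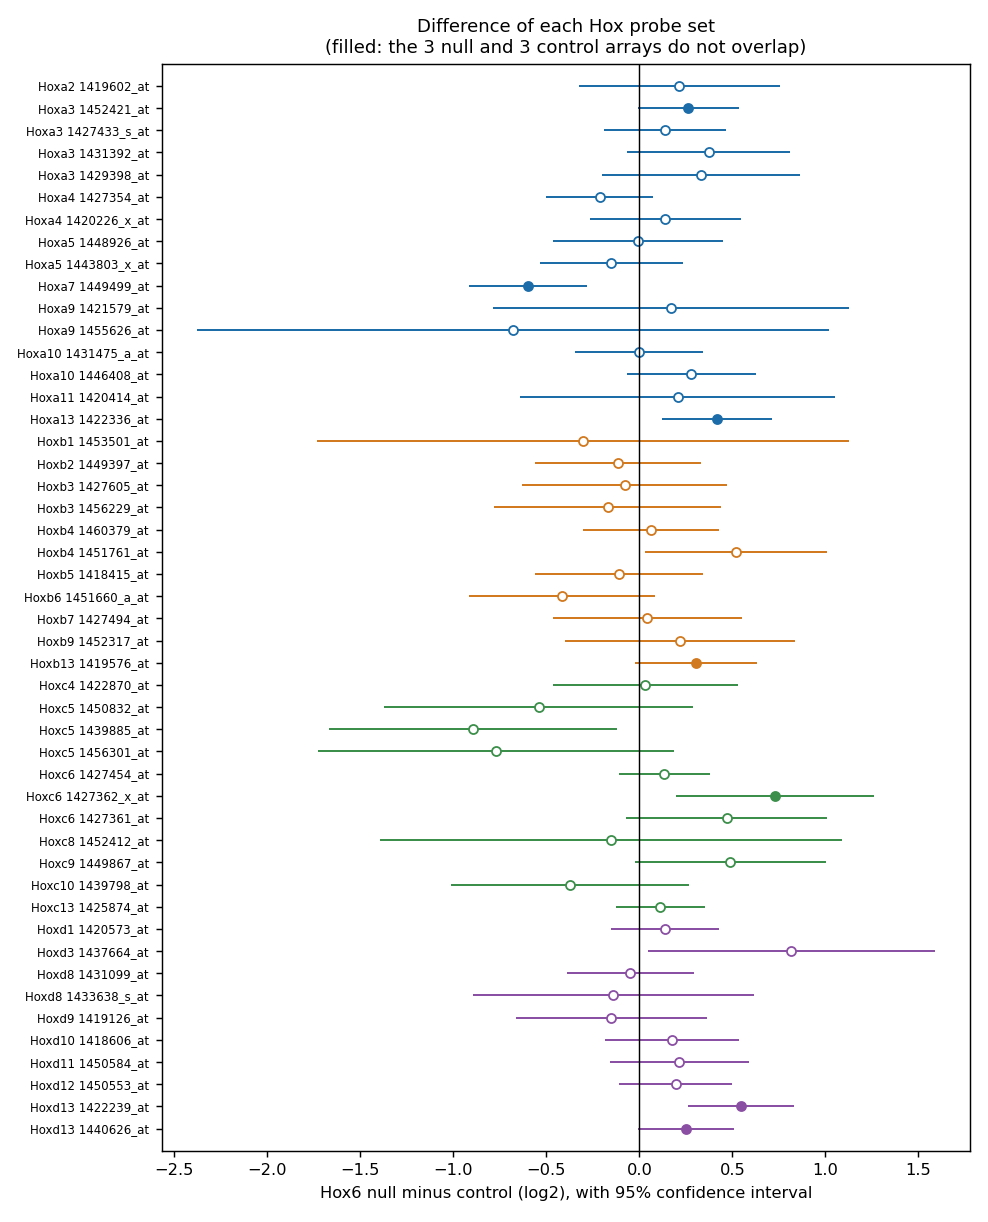
Hox6 null minus control (log2) for each of the 48 Hox probe sets, with 95% confidence intervals (limma), grouped by cluster in 4 colours from Hoxa at the top to Hoxd at the bottom. Filled points mark the 7 probe sets whose null and control arrays do not overlap. The differences run from -0.90 for Hoxc5 to 0.82 for Hoxd3, and the widest interval is that of Hoxa9.

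The null arrays differed widely from each other for Hox genes. The SD was larger in null than in control arrays for 43 of 48 Hox probe sets (89.6%), against 71.1% of all probe sets. Null 3 was the highest of the 6 arrays for 27 Hox probe sets (56.2%), whereas it was highest for 18.1% of all probe sets. It was the lowest for 0 of 48, against 16.4% of all. Null 1 was the lowest for 20 (41.7%), against 18.5% of all, and null 2 for 8 (16.7%), against 18.8% of all. Counting each gene by 1 probe set, null 3 was highest for 18 of 33 Hox genes (54.5%) and for 15.7% of all genes, and null 1 was lowest for 13 Hox genes (39.4%) and for 19.0% of all genes. The 18 genes comprised 5 of 7 genes numbered 1 to 3, 6 of 12 numbered 4 to 8 and 7 of 14 numbered 9 to 13. Relative to the control mean, the median over all Hox probe sets was -0.13 in null 1, -0.07 in null 2 and 0.34 in null 3. Over all probe sets these medians were 0.05, 0.03 and 0.01. Hox genes are not independent replicates, and these shares are descriptions chosen after the values were seen.

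The genes described next were also chosen after their values were seen. Hoxa9 with 1455626_at read 4.60, 5.23 and 5.60 in control arrays. In null arrays it read 3.58, 3.48 and 6.34. Null 1 and null 2 were below the floor and below all controls, and null 3 was above all controls. Its other probe set gave 5.45, 5.59 and 5.58 in control and 5.40, 4.97 and 6.76 in null arrays, again with null 1 and null 2 below all controls and null 3 above them. Hoxb1 read 4.84, 5.04 and 4.97 in control and 3.84, 3.82 and 6.29 in null arrays. Here the controls lay within 0.21 of each other and the null arrays spanned 2.47. Hoxc8 read 3.12, 3.97 and 3.19 in control and 2.90, 2.37 and 4.56 in null arrays, where null 3 alone was above the floor. The differences of the group means were -0.68 and 0.17 for the Hoxa9 probe sets, -0.30 for Hoxb1 and -0.15 for Hoxc8.

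**Figure D4:**
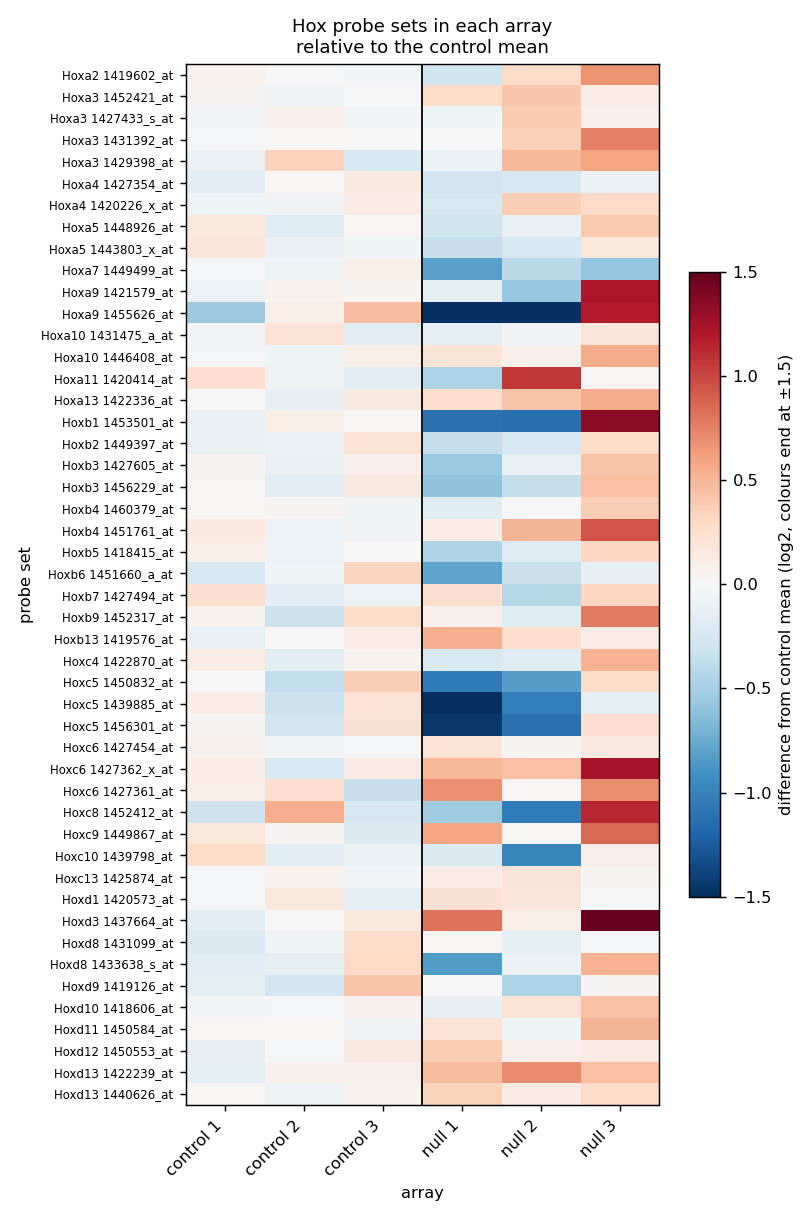
Level of each Hox probe set in each array relative to the mean of the 3 control arrays (log2, red higher, blue lower, colours ending at ±1.5). The null 3 column is mostly red, Hoxc5, Hoxa9 and Hoxb1 are blue in null 1 and null 2, and Hoxa7 is blue in all null arrays.

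**Figure D5:**
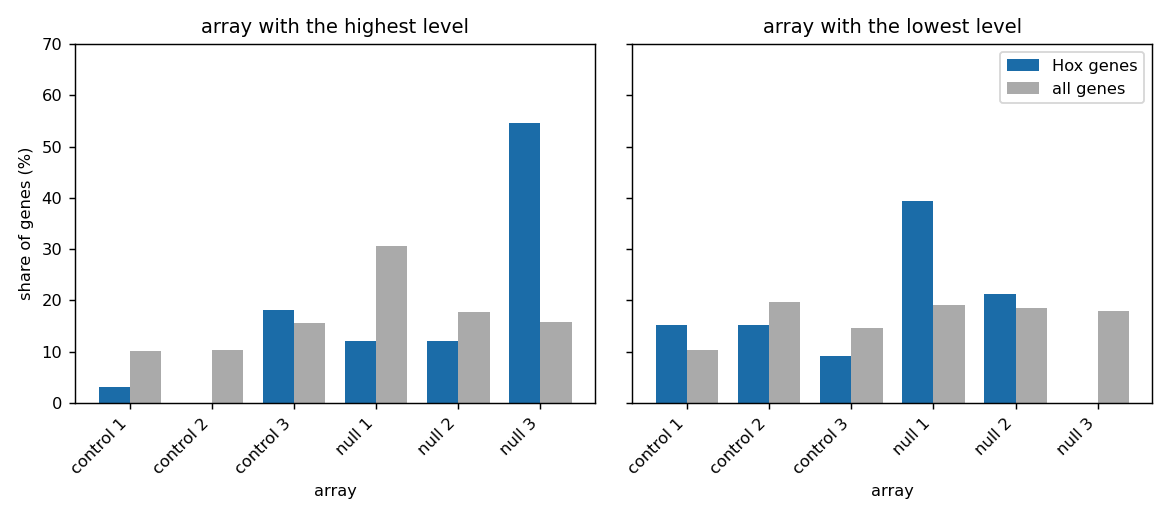
Share of genes (%) for which each array had the highest level (left) or the lowest level (right), for 33 Hox genes in blue and 18193 genes in grey, each by 1 probe set. Null 3 has the highest level for 54.5% of Hox genes and the lowest for none of them.

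Without null 3 a few Hox probe sets passed the test. The call was made for 4 of 48, all lower in null pancreas, against 4.22% of all probe sets called in either direction, 2.2% lower and 2.02% higher (limma, adjusted). On the log2 scale Hoxc5 differed by -1.27 with 1439885_at and by -1.29 with 1456301_at, Hoxb1 by -1.12 and Hoxa9 by -1.61. Their adjusted p ran from 0.0139 to 0.0320 (limma). With all arrays these differences were -0.90, -0.77, -0.30 and -0.68, and none passed. Null 3 was the highest of all arrays for these probe sets except Hoxc5 1439885_at, where it lay among the controls. Leaving it out thus favoured lower calls beforehand, so the calls cannot show that these genes fell in null pancreas. Hoxa9 was called with 1455626_at alone, and its brighter probe set differed by -0.35 with an adjusted p of 0.21. With 1 probe set per gene, 3 of 33 genes passed against 8.44% of all genes. Hoxc5 and Hoxb1 were lower, as were 4.02% of all genes, and Hoxd13 was higher, as were 4.42%. Leaving out any other array gave 0 calls.

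Means of epithelial and mesenchymal markers also set null 1 and null 2 apart from null 3. All 13 markers of pancreatic epithelium, Pdx1, Ptf1a and Cpa1 among them, were above the floor. Their mean was 8.79 to 8.96 in controls, 9.83 and 9.69 in null 1 and null 2, and 8.92 in null 3. The epithelial markers were divided in null 3. Krt8, Krt18, Krt19 and Cdh1, 4 of the 13, were lowest of all arrays there. For another 4, Pdx1, Nkx6-1, Sox9 and Cldn3, every null array was above all controls, null 3 included. The mean of 12 mesenchyme markers was 9.70 to 9.85 in controls, 9.12 and 9.18 in null 1 and null 2, and 9.70 in null 3. Its members differed: 3 of the 12 were lowest of all arrays in null 3 (Twist1 at 5.86, Pdgfrb at 9.63 and Col1a1 at 11.70), and 3 were highest there, among them Barx1 at 10.70. Vascular, blood and mesothelial means were below all controls in null 3 as well. The mean of 4 mesothelium markers was 6.80 to 6.87 in controls and 6.01, 6.0 and 6.32 in null arrays. Upk3b and Muc16 were below all controls in every null array. Wt1 read 8.82, 8.61 and 8.84 in controls and 6.70, 7.22 and 8.65 in null arrays, so null 3 lay among the controls. Msln had a control mean of 3.32, below the floor, and differed by 0.01. Null 3 stood apart for a pair of genes of other tissues: Tubb3, a tubulin of neurons, read 8.17 there and at most 6.62 in any other array, and Sox2, a factor of neural tissue and foregut, read 5.40 there and at most 3.12 elsewhere. Other members of the same lists did not set null 3 apart from all other arrays in this way. Stmn2, also a neuronal gene, read 7.91 in null 3, among the controls at 8.48, 8.08 and 7.39. It was above null 1 and null 2, which read 7.23 and 6.97. The intestinal factors Cdx1 and Cdx2 read 3.23 and 4.26 in null 3, Cdx1 being lowest there. Sox10, a neural crest factor, read 7.08 in null 3, below 7.39 and 7.32 in null 1 and null 2. The means of 6 endothelial markers were 8.75 to 8.89 in controls and 7.99, 8.18 and 8.46 in null arrays, and those of 6 blood and macrophage markers 8.17 to 8.23 and 6.81, 7.05 and 7.27. Of 4 gut markers 2 were above the floor, as was 1 of 3 measured for mesonephros and gonad and 1 of 3 for limb and posterior mesoderm. The part of these tissues in the Hox values was not tested.

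Genes that work with, control or flank the Hox genes were read from lists chosen with earlier results of these data known. Of 8 Hox cofactors measured, 0 passed over all genes and 5 were negative. Pknox2 read 9.15, 9.01 and 9.16 in control and 8.23, 8.46 and 8.87 in null arrays, without overlap, a difference of -0.59. Meis2 read 11.16, 11.17 and 11.18 in control and 10.40, 10.47 and 11.10 in null arrays, and Meis1 differed by -0.25, both also without overlap. Groups did not overlap for these 3 of 8 cofactors and for 23.8% of all genes. The others overlapped, with differences of -0.15 for Pbx3, -0.07 for Pknox1, 0.04 for Meis3, 0.07 for Pbx2 and 0.18 for Pbx4. Of 30 regulators of Hox genes, including Polycomb and trithorax members, Cdx factors and retinoic acid genes, 0 passed over all genes and 3 had an unadjusted p under 0.05 (limma), against 17.0% of all genes. These were Cyp26b1, which breaks down retinoic acid (-1.07), the retinoic acid receptor Rarb (-0.82) and the hindbrain factor Egr2 (0.85). The control mean of Egr2 was 3.21, below the floor, and its null arrays read 4.52, 3.71 and 3.97, with null 1 alone above the floor. The fourth by p was Kdm6a, a histone demethylase, at -0.48 with overlap. Of 12 genes that lie beside the Hox clusters 0 had an unadjusted p under 0.05 or passed over all genes (limma). Those with the smallest p were Snx11, Evx1, Ttll6 and Skap2, with differences of 0.16, 0.26, 0.38 and -0.24.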

How the data were processed

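Expression was measured on Affymetrix arrays, 1 per sample, in 3 control and 3 Hox6 null samples. The deposited values are log2 levels per probe set, and the submitters' processing notes name RMA, affy and limma without versions. RMA sets values relative to the other arrays and leaves a background floor that compresses changes of dim probe sets. Array medians lay between 5.97 and 6.02. The genome build of the probes is not given in the sources used here.

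Names came from the platform's annotation, where 34945 probe sets had 1 symbol, 932 several and 9160 none listed, and 64 array controls were left out. All 48 member probe sets matched the RefSeq table (GRCm38.p6) by Entrez identifier. Genotype was fitted with limma 3.58.1 in R 4.3.3 (lmFit and eBayes, two-sided, Benjamini-Hochberg) over 45037 probe sets, and over 18193 genes, each represented by its brightest probe set on average. An exact permutation test of 3 against 3 cannot go below 0.1. The code was tested on simulated data. Promoter windows were taken from RefSeq; their strand was checked on 1671 overlapping windows of opposite strands, all of which were reverse complements.

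Values in every array were given for Hox6 probe sets, for 1 probe set of each Hox5 and Hox7 gene, for the 10 other Hox probe sets with the smallest p and for the highest control level in each cluster; other genes so described were chosen after their values were seen. The members, lists and rules were chosen with earlier results of these data known. Alternatives covered normalization, dim probe sets, variance prior, array weights, blocking, probe set choice, the floor and each array left out.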

Additional observations from a re-analysis of the deposited data

How the results depend on the processing

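The count of Hox probe sets past the threshold was 0 under every alternative run except one: it ranged from 0 to 4 when single arrays were left out, the 4 without null replicate 3. The count of Hox genes ranged likewise from 0 to 3. With the replicate number as a block the counts were 0 of 48 and 0 of 33. Same-numbered arrays deviated together with correlations of 0.14, 0.0049 and 0.062, and arrays of unlike number with correlations from -0.13 to 0.054. With 3 arrays per group, such small values cannot decide whether the numbers pair the samples. The number of Hox probe sets above the floor was 32 or 33 under repeated normalization or with a control left out, and 23 at the median of all probe sets. Differences near zero changed sign: Hoxa5 ranged from -0.21 to 0.14 and Hoxb7 from -0.090 to 0.28 when single arrays were left out, Hoxb5 from -0.32 to 0.058 and Hoxd8 from -0.15 to 0.090. After repeated quantile normalization Hoxa5 stood at 0.022 and Hoxb7 at -0.039, and Hoxb7 at -0.14 with array weights. The other 16 of 20 named probe sets kept their sign throughout. Leaving out probe sets below the median of all gave medians of -0.54 for Hoxc and -0.09 for Hoxd, and leaving out those at or below the floor gave 0.08 and -0.05. With array weights the Hoxc median was -0.08. Leaving out single arrays, the median ranged from -0.31 to 0.10 for Hoxb, from -0.21 to 0.15 for Hoxc and from -0.24 to 0.048 for genes 4 to 8, and over all Hox probe sets from -0.06 to 0.16. The cause of these shifts was not tested.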
